A study of Mus musculus with 19 samples.

Results

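Sp9, Six3, Foxp1, Bcl11b, Meis2, Rarb and Mef2c are transcription factors of the striatum, the forebrain region whose main cells are the inhibitory spiny projection neurons. They were taken by symbol, as a set of factors linked to D2 neurons or shared by both neuron types. All 7 were found among the 39017 genes of the deposited tables, and all 7 passed the filter on low counts that left 13926 genes for testing. Spiny projection neurons are of 2 kinds, named D1 and D2 after their dopamine receptor, Drd1 or Drd2.

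Striatal neurons arise in the lateral ganglionic eminence of the embryo. Sp9, a zinc finger protein, and Six3, a homeodomain protein, are known as factors needed to form D2 neurons. Foxp1 (a forkhead repressor), Bcl11b (Ctip2, a zinc finger factor of spiny neuron differentiation), Meis2 (a homeodomain partner of Pbx proteins), Rarb (a retinoic acid receptor) and Mef2c (a MADS box factor of activity-dependent transcription) are known from spiny neurons more broadly.

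The libraries were made by translating ribosome affinity purification, in which an EGFP-tagged ribosomal protein, L10a, is expressed in one cell type and pulled down with the mRNA on its ribosomes. Female mice of the strain Drd1::EGFP-L10a gave the D1 libraries and female mice of the strain Drd2::EGFP-L10a the D2 libraries, both on a C56BL/6J background as the labels spell it. Each strain was sampled at 42 days (young) and at 2 years (old), with 4 libraries in each of the 4 groups. The receptor gene's sequences drive the tag, so other cells that use that receptor gene could carry it too. Each neuron type came from its own strain, so neuron type and strain cannot be told apart. The labels do not say whether an animal or a pool gave a library, and p-values measure the spread between libraries. A change in these bulk samples can come from fewer cells or from less RNA per cell, and these cannot be told apart.

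Libraries held 27484038 to 70903004 assigned fragments. The receptors followed the labels: Drd1 was at 250 to 610 TPM (transcripts scaled to a fixed total, a level per length) in D1 and 5.11 to 91.8 in D2 libraries, and Drd2 at 1.55 to 48.5 in D1 and 2395 to 5717 in D2 libraries. The summed TPM of 10 astrocyte markers set the old D1 libraries apart, at 239.5 to 403.5 against 26.2 to 157.5 in the other 12. Much of this sum was 1 gene, Aldoc, at a mean of 277.6 TPM in old D1, 41.2 in young D1 and 69.15 in old D2 libraries. The median log2 difference of the 9 astrocyte markers tested was 0.37 with age in D1 and 0.01 between old D1 and old D2 (edgeR). It was larger with age in D2, at 1.175, and between young D1 and young D2, at 0.91. Within D2 the astrocyte sums were apart by age, at 26.2 to 67.3 TPM in young and 97.9 to 157.5 in old libraries. Old D1 replicates 1 to 4 detected 11628, 11880, 13705 and 10369 genes, against 12783 to 15000 in the other 12 libraries. Only replicate 3 reached into that range, and the others lay below it. In old D2 libraries, 9 summed D1 markers reached 448 to 711 TPM, against 146 to 172 in young D2 libraries. The labels give an index sequence per library, and index and age cannot be told apart. How far these features enter the values below was not tested.

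Some coding sequences that differ between isoforms of Meis2 and of Mef2c are shown first, from GENCODE M21 transcripts (GRCm38). Each is written 5′ to 3′ on the gene's strand, with 24 flanking bases in lower case and the alternative bases in capitals. Meis2-201 and Meis2-203 differ by 21 bases at the start of an exon, chr2:115867359-115867379 on the minus strand.
Meis2-201: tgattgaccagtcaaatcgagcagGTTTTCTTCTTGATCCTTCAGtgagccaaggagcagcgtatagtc
Meis2-203: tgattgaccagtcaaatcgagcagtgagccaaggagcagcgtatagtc
A 95-base Meis2 exon, chr2:115866810-115866904 on the minus strand, is present in Meis2-205 and skipped in Meis2-201. Its 59 coding bases end with the stop codon, so including it shortens the end of the protein.
Meis2-205: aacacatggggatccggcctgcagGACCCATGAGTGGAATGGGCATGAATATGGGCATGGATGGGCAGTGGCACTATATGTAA
Meis2-201: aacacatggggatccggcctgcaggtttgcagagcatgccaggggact
A 24-base Mef2c exon, chr13:83654598-83654621 on the plus strand, is present in Mef2c-203 and absent from Mef2c-201.
Mef2c-203: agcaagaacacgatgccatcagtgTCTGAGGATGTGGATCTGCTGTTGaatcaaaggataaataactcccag
Mef2c-201: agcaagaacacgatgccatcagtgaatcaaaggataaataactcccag

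Between D1 and D2 neurons, Sp9 showed by far the widest gap of the 7, Foxp1 a smaller one, and Bcl11b, Rarb and Mef2c overlapped. At 42 days edgeR called 2 of the 7 members, Sp9 and Foxp1, both higher in D2, against 0.409% of all genes tested. At 2 years it called 1 of 7, Sp9, against 9.60% of all genes. On TPM the 4 D2 libraries were all above the 4 D1 libraries for 4 of 7 members at 42 days (Sp9, Six3, Foxp1 and Meis2), against 3.98% of all genes. At 2 years this held for 3 of 7 (Sp9, Six3 and Meis2), against 10.2% of all genes. Since the genes were chosen partly for their link to D2 neurons, these counts describe the set.

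**Figure D1:**
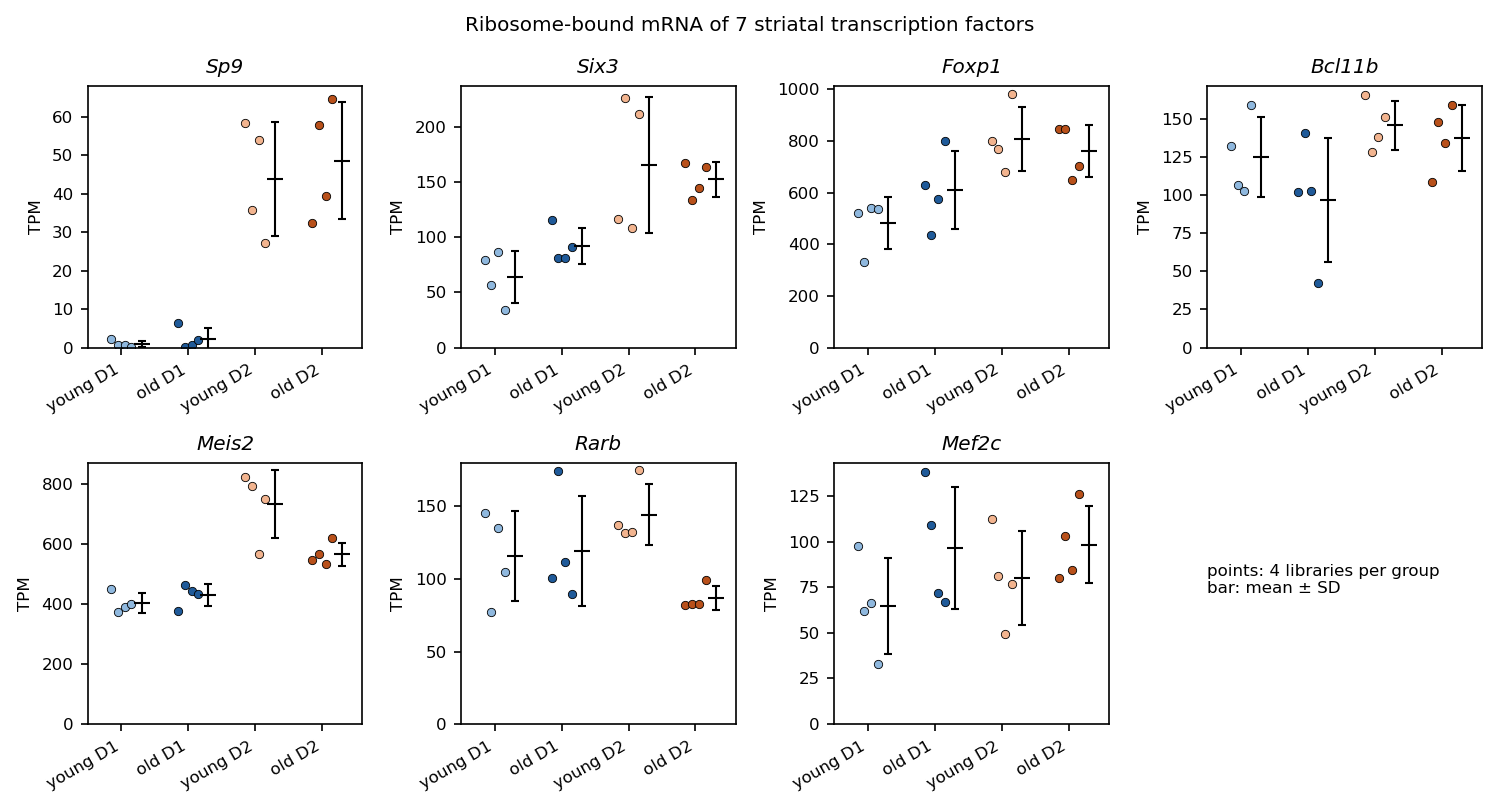
TPM of each gene (y axis, a separate linear scale from 0 per panel) in the 4 groups on the x axis. Points are libraries, and the bar is the mean ± SD of 4. Sp9 is at 0.19 to 6.48 in D1 and 27.3 to 64.8 in D2 libraries, and Meis2 also has no overlap between the D1 and D2 libraries.

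Sp9 (ENSMUSG00000068859, chr2:73271925-73284706, plus strand) was low in all D1 and high in all D2 libraries. Its TPM was 2.23, 0.78, 0.69 and 0.23 in young D1 and 58.5, 35.8, 53.9 and 27.3 in young D2 libraries. In the old libraries it was 6.48, 0.19, 0.61 and 1.91 in D1 and 32.3, 58.0, 39.5 and 64.8 in D2. Every D2 library was above every D1 library, and the median over the 8 D2 libraries was 63.5 times that over the 8 D1 libraries. The D1 minus D2 difference was -5.44 ± 0.87 on the log2 scale (SE, edgeR, adjusted p = 0.00277) at 42 days and -4.28 ± 0.82 (adjusted p = 0.00303) at 2 years. It was called at both ages under all 25 alternatives. Counts behind these levels were 25 to 233 in young D1, 19 to 468 in old D1, and 2922 to 6573 in old D2 libraries. The highest D1 value came from 1 old library.

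Six3 (ENSMUSG00000038805, chr17:85613608-85629302, plus strand) was also higher in D2 libraries on TPM, without passing the edgeR threshold. The young levels were 78.8, 56.5, 86.2 and 34.2 TPM in D1 and 116, 226, 108 and 211 TPM in D2. The old levels were 115, 80.8, 81.2 and 90.8 TPM in D1 and 167, 134, 144 and 164 TPM in D2. Within each age the D2 libraries lay above the D1 libraries, while an old D1 library reached into the young D2 range. The D1 minus D2 difference was -1.07 ± 0.28 (SE, edgeR, adjusted p = 0.155) at 42 days, and DESeq2 called it (adjusted p = 0.0190). At 2 years it was -0.57 ± 0.28 (adjusted p = 0.207). The antisense gene Six3os1 overlaps the 5′ end of Six3, and it was at 0 to 26.6 TPM. With strand use unknown, reads of the overlap cannot be assigned to either.

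Foxp1 (ENSMUSG00000030067, chr6:98925338-99522721, minus strand) was the most abundant of the 7 in every group and higher in D2 neurons at 42 days. The young levels were 521, 330, 542 and 538 TPM in D1 and 801, 767, 682 and 981 TPM in D2. The old levels were 631, 435, 575 and 800 TPM in D1 and 846, 845, 650 and 705 TPM in D2. The young groups did not overlap, and the old ones did through the highest D1 library. The difference at 42 days was -0.81 ± 0.16 (SE, edgeR, adjusted p = 0.0180), a 1.76-fold higher level in D2. It was called under 17 of 25 alternatives, with adjusted p from 6.81e-04 to 0.9996 over them. The call was lost on log2(TPM + 1) values with limma (adjusted p = 0.227), under the planned removal of GC and length trends (0.9996), and without any of 5 single libraries: young D1 replicate 2 (0.104), 3 (0.0676) or 4 (0.0660), or young D2 replicate 1 (0.0981) or 4 (0.0848). At 2 years the difference was -0.47 ± 0.16 (adjusted p = 0.0642), and it passed without old D1 replicate 4 (0.0319) or old D2 replicate 1 (0.0473).

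Meis2 (ENSMUSG00000027210, chr2:115863064-116065839, minus strand) was next in abundance to Foxp1. The young levels were 450, 374, 389 and 401 TPM in D1 and 824, 792, 568 and 748 TPM in D2. The old levels were 376, 462, 445 and 434 TPM in D1 and 545, 567, 533 and 618 TPM in D2. All 8 D2 libraries were above all 8 D1 libraries. On counts the D1 minus D2 difference at 42 days was -0.53 ± 0.16 (SE, edgeR, adjusted p = 0.327), while limma on log2(TPM + 1) gave -0.85 (adjusted p = 0.0154). TPM divides by the length of the isoforms present, and the mean length given for Meis2 was 2547 bases in young D1 and 2257 bases in young D2 libraries. In the old libraries it was 2409 bases in D1 and 2609 bases in D2. The part of length in the gap between the edgeR and limma values was not tested. At 2 years the edgeR difference was -0.41 ± 0.16 (adjusted p = 0.105).

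Bcl11b (ENSMUSG00000048251, chr12:107910403-108003602, minus strand) was at 103 to 159 TPM in young D1, 128 to 165 in young D2, 42.3 to 141 in old D1 and 109 to 159 in old D2 libraries. The groups overlapped at both ages. The D1 minus D2 difference was -0.07 ± 0.24 (SE, edgeR, adjusted p = 0.999) at 42 days and -0.30 ± 0.24 (adjusted p = 0.500) at 2 years. The lowest of all 16 libraries was 1 old D1 library.

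Mef2c (ENSMUSG00000005583, chr13:83504034-83667080, plus strand) was at 64.8 ± 26.4 TPM in young D1, 79.9 ± 25.8 in young D2, 96.4 ± 33.5 in old D1 and 98.3 ± 20.99 in old D2 libraries (SD, n = 4 each). Its D1 minus D2 difference was -0.18 ± 0.27 at 42 days and 0.19 ± 0.27 at 2 years (SE, edgeR). Neither passed the test, and all groups overlapped.

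Within each group the order of the mean levels ran from Foxp1 and Meis2 at the top to Sp9 at the bottom. Foxp1 and Meis2 overlapped in 3 groups and were apart in old D2 libraries. Meis2 was apart from the next gene in all 4 groups. In D1 libraries the middle genes overlapped each with its neighbour, and Sp9 lay apart below them. In young D2 libraries Sp9 overlapped Mef2c, the next gene above it.

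With age, no member was called in either neuron type. In D1 neurons 0 of 7 were called against 10.8% of all genes (edgeR), and only Mef2c had an unadjusted p under 0.05, with a difference of 0.61 ± 0.27 (adjusted p = 0.150). In D2 neurons 0 of 7 were called against 0.079% of all genes, and only Rarb had an unadjusted p under 0.05. For the difference between the age changes 0 of 7 were called against 1.77% of all genes, with Rarb again the only one under 0.05 unadjusted. DESeq2 called none of the 7 in these 3 contrasts either.

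Rarb (ENSMUSG00000017491, chr14:16430839-16819156, minus strand) had the clearest separation with age, and in D2 libraries alone. Its level was 137, 132, 133 and 175 TPM in young D2 and 82.4, 82.7, 83.1 and 99.04 TPM in old D2 libraries. All 4 old D2 libraries were below all 4 young ones, which was so for 1 of 7 members and for 2.64% of all genes. The age difference was -0.82 ± 0.23 (SE, edgeR, unadjusted p = 0.00181, adjusted p = 0.424). It passed in a fit of the 2 D2 groups alone (adjusted p = 0.0494) and with voom library weights (0.0314), and its adjusted p ran up to 0.9996 over the alternatives. In D1 neurons Rarb was at 146, 77.2, 135 and 104.5 TPM when young and 101, 174, 112 and 89.9 TPM when old, and these groups overlapped. The age change in D1 minus that in D2 was 0.78 ± 0.32 (adjusted p = 0.209), so a difference between the neuron types was not shown.

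**Figure D2:**
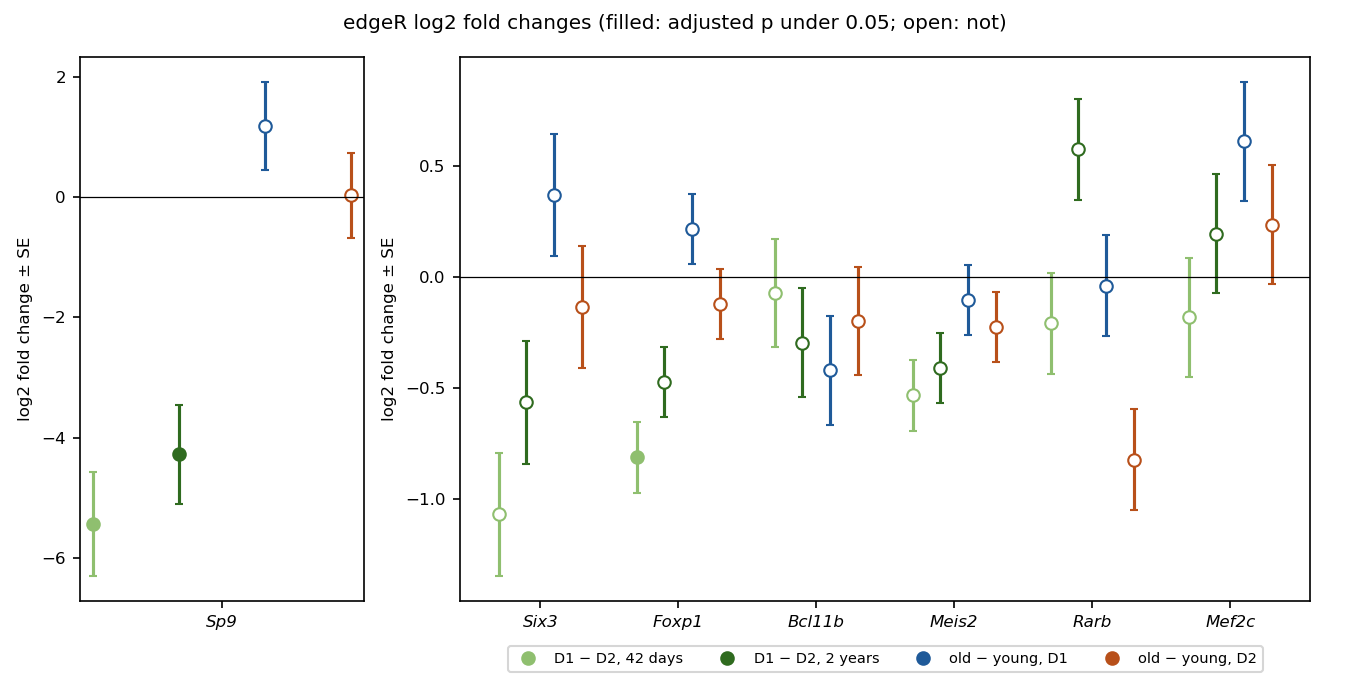
Log2 fold changes ± SE from edgeR (y axis; Sp9 has its own scale) for each gene on the x axis, in 4 contrasts shown by colour. Filled points have an adjusted p under 0.05: Sp9 at both ages and Foxp1 at 42 days, all lower in D1.

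The isoform shares were RSEM estimates, and usage was tested with limma's diffSplice against the other isoforms of the same gene. Of the members' isoforms 40 were tested. Meis2 and Foxp1 held all 7 calls, each of which involved old D1 libraries. In D1 neurons with age 4 of 40 were called against 9.87% of all isoforms tested, and between old D1 and old D2 it was 2 of 40 against 12.8%. For the difference of age changes 1 of 40 was called against 4.65%. None of 40 was called between D1 and D2 at 42 days (0.134% of all isoforms) or with age in D2 neurons (0.245%). The members' shares of calls were thus near or below the background.

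Meis2-203, which lacks the 21 bases shown above, took 65.2, 57.0, 32.8 and 7.19% of Meis2 TPM in old D1 libraries. It took 0, 3.6, 19.8 and 0% in young D1, 2.90, 2.07, 1.74 and 18.4% in young D2, and 0, 1.45, 2.35 and 6.68% in old D2 libraries. Old D1 replicates 1, 2 and 3 were above every other library, and replicate 4 was within the range of the others. Usage differed between old and young D1 by 10.83 ± 2.33 on the log2 scale (SE, diffSplice, adjusted p = 4.39e-04) and between old D1 and old D2 by 9.42 ± 1.84 (adjusted p = 6.45e-05). Libraries at 0 make the size of these log2 values depend on the offset, and they are no bound on a fold. Over the same libraries Meis2-202, which includes the 95-base exon, took 15.5, 6.41, 10.8 and 0% in old D1, against 27.9 to 64.2% elsewhere. Its usage was not called against young D1 (diffSplice, adjusted p = 0.1205) or between old D1 and old D2 (0.0960). In the old D1 library where Meis2-203 was lowest, Meis2-208, annotated with no coding sequence, took 64.2%.

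Summed over all isoforms that span it, the 95-base exon was included in 80.4 ± 5.52% of isoform TPM in young D1, 85.8 ± 6.92% in young D2 and 84.0 ± 5.17% in old D2 libraries (SD, n = 4 each). In old D1 libraries the inclusion was 32.1, 28.3, 47.1 and 92.8%. Old D1 replicates 1, 2 and 3 were thus below all 12 other libraries, and replicate 4 was above them. The 21-base segment was included in 31.4 ± 5.27% in young D1 and 19.0 ± 9.49% in old D1 libraries, and these groups overlapped. The 24-base Mef2c exon was included in 15.6 ± 10.6% in young D1, 4.09 ± 2.85% in old D1, 23.4 ± 6.81% in young D2 and 19.3 ± 7.84% in old D2 libraries. All 4 old D1 values lay below all 8 D2 values, and young D1 values ran from 2.51 to 26.2%. These segments were picked after their values were seen, and no separate test was made of their inclusion. The 24-base exon is held by Mef2c-203 alone, so its inclusion is the share of that isoform. Usage of Mef2c-203 was not called between old D1 and old D2 (diffSplice, adjusted p = 0.382) or with age in D1 (0.5685).

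**Figure D3:**
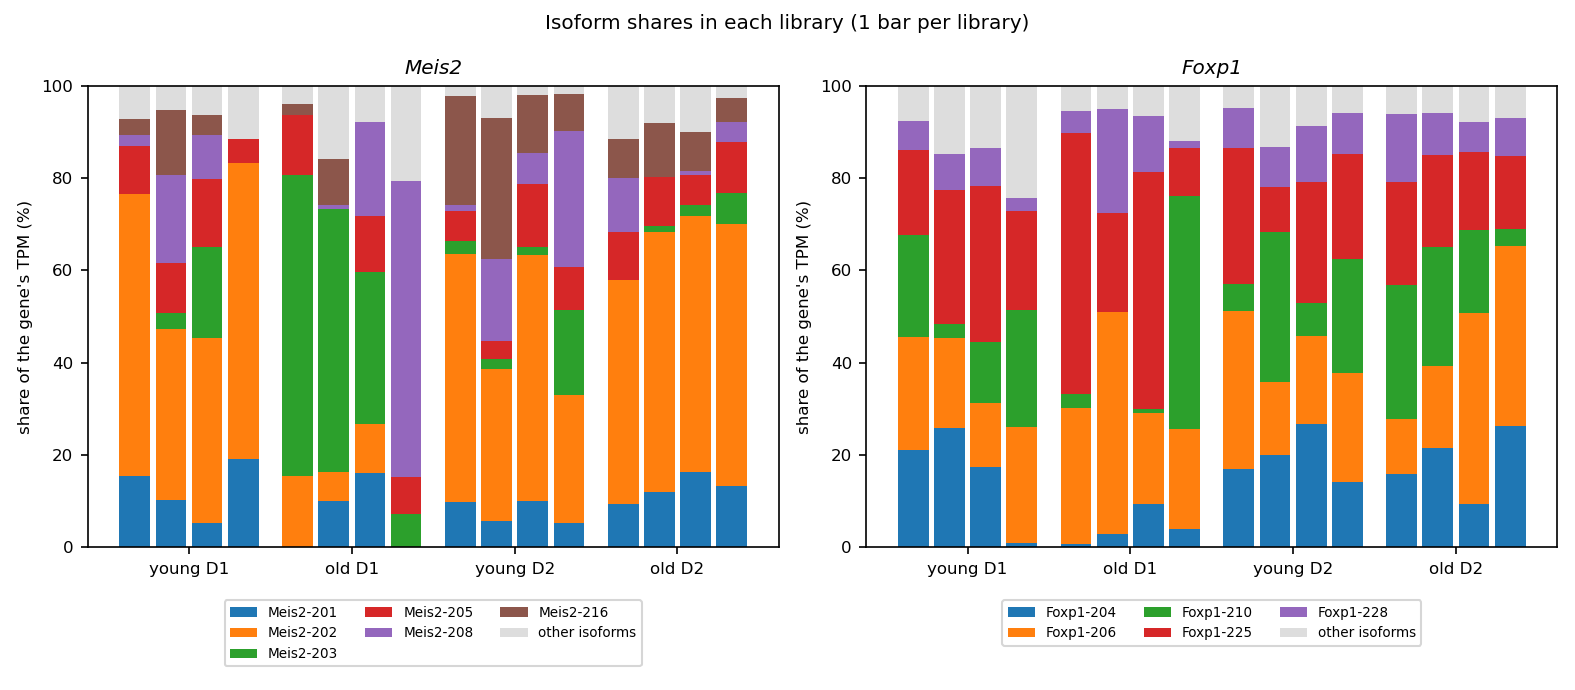
Share of each gene's TPM (y axis, percent) held by its isoforms with a mean share of at least 10% in any group, with 1 stacked bar per library and the libraries grouped on the x axis. Meis2-203 fills 65.2, 57.0 and 32.8% of 3 old D1 libraries.

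**Figure D4:**
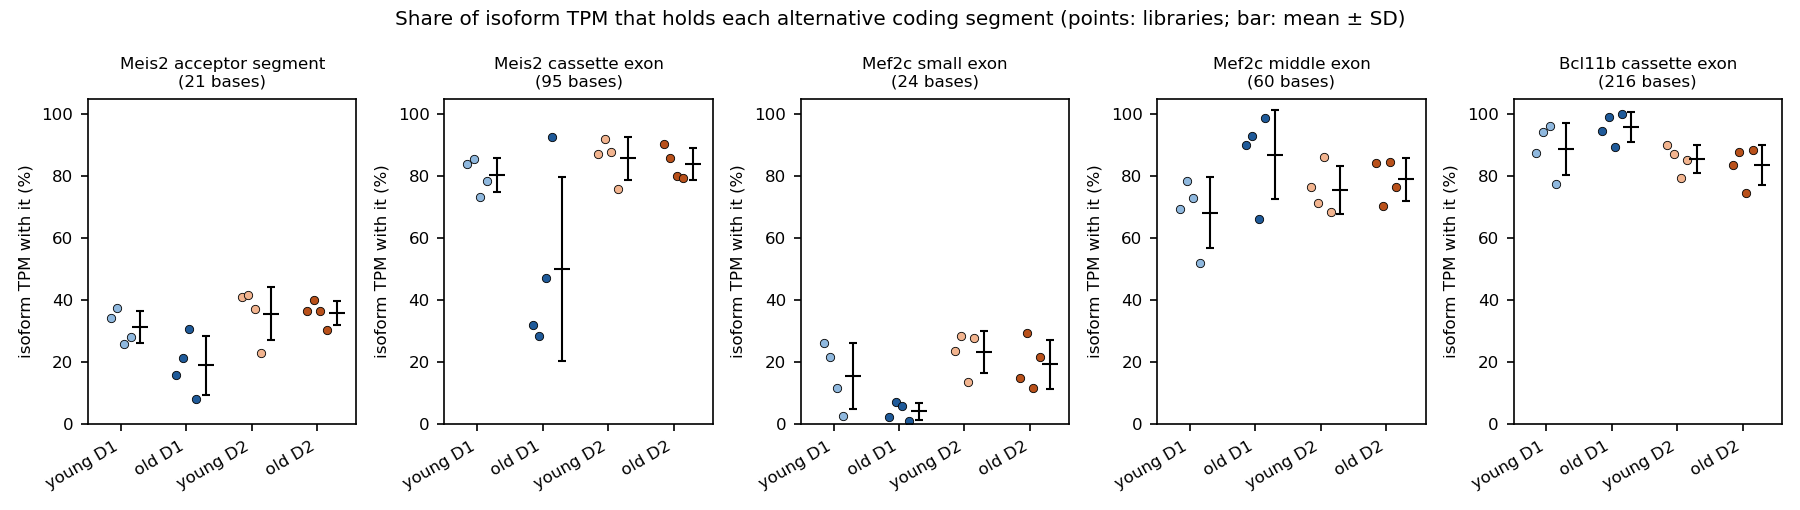
Share of isoform TPM that includes each alternative segment (y axis, percent) in the 4 groups on the x axis. Points are libraries and bars are mean ± SD of 4; the 95-base Meis2 exon is at 28.3 to 47.1% in 3 old D1 libraries and at 92.8% in the fourth.

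Foxp1 was spread over several isoforms. Foxp1-204, a full-length form, took 0.65, 2.91, 9.47 and 3.96% in old D1 libraries, against 9.30 to 26.4% in the D2 libraries. In young D1 libraries it took 21.2, 25.8, 17.3 and 0.92%, and the last of these was within the old D1 range. Its usage was lower in old D1 than in old D2 by a log2 difference of -2.32 ± 0.64 (SE, diffSplice, adjusted p = 0.00658), which was lost without old D1 replicate 2 (0.0687). Against young D1 it was -2.17 ± 0.71 (adjusted p = 0.0305), and this was lost in 5 of 18 alternatives. Foxp1-206 rose in usage with age in D1 by 1.57 ± 0.43 (adjusted p = 0.00693, lost in 3 of 18). Its shares overlapped, at 24.45, 19.5, 13.9 and 25.0% in young D1 and 29.5, 48.15, 19.6 and 21.6% in old D1 libraries. Meis2-206 rose in usage with age in D1 by 9.27 ± 3.08 (adjusted p = 0.0347, lost in 5 of 18), and its mean share was under 10% in every group. Isoforms with the upstream coding start of Foxp1 held 44.3 ± 12.2% of its TPM in young D1, 44.8 ± 21.1% in old D1, 54.1 ± 6.69% in young D2 and 57.6 ± 13.3% in old D2 libraries (SD, n = 4 each). These overlapped.

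The remaining members had simpler isoform patterns. Sp9 came mainly from Sp9-201. For Rarb the deposited tables hold only 1 isoform, Rarb-201, so its share could only be 100% and other forms could not be seen. Usage was not tested for Sp9 or Rarb. Bcl11b-201, with a 216-base exon that Bcl11b-203 skips, held 74.5 to 100% in all libraries. Six3-202 and Six3-203 share their coding sequence and differ at their ends. Six3-203 held 0 to 15.5% in young D1 and 1.09 to 52.0% in young D2 libraries. In old libraries it held 1.75, 0, 0 and 65.4% in D1 and 13.6 to 30.45% in D2. Its usage was not called between D1 and D2 at 42 days (diffSplice, adjusted p = 0.780) or at 2 years (0.122). Mef2c-202, which includes a 60-base exon, was the main Mef2c form, at 52.0 to 98.8%.

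Paralogs show which relatives accompany each gene, from a list of 33 paralogs and partners of which 25 were tested. Among called genes, Foxp2, the sister of Foxp1 known for its role in vocal and motor learning, had the reverse pattern to Foxp1. It was at 92.5 ± 42.3 TPM in young D1 and 28.0 ± 9.28 in young D2 libraries (SD, n = 4 each), a D1 minus D2 difference of 1.62 ± 0.27 (SE, edgeR, adjusted p = 0.00442). It rose with age in D2 to 115 ± 26.3 TPM, by 1.54 ± 0.27 (adjusted p = 0.0255), called under 15 of 25 alternatives. In D1 it rose to 223 ± 97.4 TPM, by 1.07 ± 0.27 (adjusted p = 0.0155). Old D2 libraries also held more D1 markers, as given above, and the part of this in the Foxp2 change was not tested.

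Meis1, a paralog of Meis2, followed its direction, at 4.20 ± 3.66 TPM in old D1 and 36.3 ± 16.7 in old D2 libraries, and differed by -3.31 ± 0.68 (SE, edgeR, adjusted p = 0.00483). Mef2d, a relative of Mef2c, was at 242 ± 67.4 TPM in young D1 and 129 ± 34.4 in old D1 libraries, a fall by 1.08 on the log2 scale (SE 0.22, adjusted p = 0.00482). This turned to 0.43 when GC and length trends were removed as planned and to -0.13 with the centred removal added later, and neither was called. Mef2a rose by 0.72 ± 0.21 (adjusted p = 0.0364) and Sp2 fell by 1.57 (SE 0.39, adjusted p = 0.0149) in the same contrast. The Mef2a call held under 10 of 25 alternatives (adjusted p up to 0.242). The Sp2 call held under 21 of 25, and its difference was -0.12 under the planned and -0.77 under the centred removal, neither of them called. Bcl11a, the paralog of Bcl11b, stood at 44.3 to 168 TPM in all libraries. Sp8, known as the close partner of Sp9, had a highest group mean of 0.19 TPM, and Six2, Six4, Six5, Six6 and Mef2b were listed at 0.

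**Figure D5:**
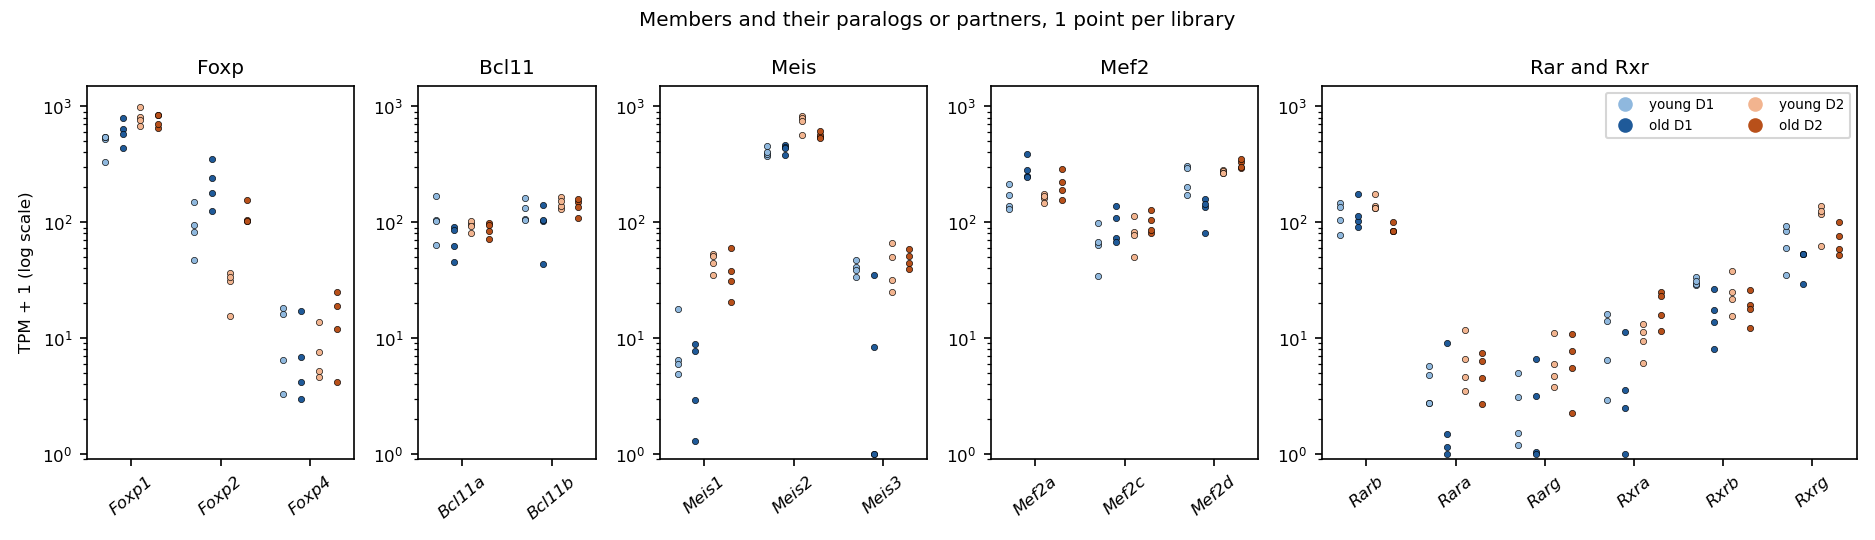
TPM + 1 on a log scale (y axis) of 5 of the members and their relatives (x axis), with 1 point per library and groups in colour. Foxp2 is higher in D1 than D2 libraries at 42 days, at 92.5 against 28.0 TPM on average, while Foxp1 is lower.

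Over the 25 tested paralogs and partners edgeR called 2 higher and 2 lower with age in D1 (10.8% of all genes were called), 1 higher in D2 (0.079%), and 1 lower in the difference (1.77%). Between neuron types they were 1 higher in D1 at 42 days (0.409%), and 2 higher and 3 lower at 2 years (9.60%). In that order the list's median log2 differences were -0.29, -0.18, -0.24, -0.28 and -0.77, beside -0.06, 0.01, -0.11, 0.02 and -0.07 over all genes.

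Of 25 developmental regulators of the striatum 22 were tested. The members were not in this list, so D2-side factors among them, such as Sp9, could not be counted. At 42 days 4 of the 22 were called higher in D1 and none lower, against 0.409% of all genes called. Among the 4 were Isl1 and Ebf1, known as factors of D1 neurons. Isl1 was at 48.8 ± 34.1 TPM in young D1 and 2.54 ± 1.46 in young D2 libraries, a difference of 4.70 ± 0.71 (SE, edgeR, adjusted p = 0.00176). Ebf1 was at 29.8 ± 6.90 and 1.32 ± 0.81 TPM, a difference of 4.49 ± 0.75 (adjusted p = 0.00431). These 2 are the D1-side counterpart of Sp9, and both were called under all 25 alternatives at 42 days. At 2 years 5 of the 22 were called higher in D1 and 1, Meis1, lower, against 9.60% of all genes called.

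Of 13 genes that make, carry or break down retinoic acid, the ligand of Rarb, 9 were tested. The 1 call in any contrast was Rbp4, a retinol carrier, between old D1 and old D2, where 9.60% of all genes were called. It was higher in old D1 by 3.11 ± 0.95 (SE, edgeR, adjusted p = 0.0456). This call held under 10 of 25 alternatives (adjusted p up to 0.146) and was lost in most fits that left out 1 library. Among partner receptors of Rarb, Rxrg was at 110 ± 33.1 TPM in young D2 and 70.6 ± 21.4 in old D2 libraries (SD, n = 4 each), and it was not called with age. Of 25 corepressor genes, all tested, 2 were called with age in D1, against 10.8% of all genes. These were Hdac2 and Chd3, both higher in old D1, Hdac2 by 0.89 ± 0.22 (adjusted p = 0.0146). Hdac2 was also higher in old D1 than old D2 by 1.01 ± 0.22 (adjusted p = 0.00768, called under 23 of 25 alternatives). Its age change in D1 minus that in D2 was 1.29 ± 0.31 (adjusted p = 0.0399, called under 11 of 24). The other 23 were not called. With age in D1 the Hdac2 call held under 20 of 25 alternatives (adjusted p up to 0.0993) and the Chd3 call under 14 of 25 (up to 0.133).

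The genes whose levels ran most like each member over the 16 libraries were found by Pearson's r of log2(TPM + 1) among 10087 genes, as a description. The libraries share neuron type and age groups, so r reflects those groups as well as libraries. It also cannot tell neuron type from strain. Sp9 ran most closely with Ttc12 (r = 0.948), Ankk1 (0.943) and Oprd1 (0.938), all near 0 in D1 libraries. Meis2 ran with Osbpl8 (0.864), Oprd1 (0.863) and the muscarinic receptor Chrm3 (0.850). Foxp1 ran with Snapc3 (0.862), Six3 with Fig4 (0.917), Bcl11b with Akt1 (0.933), Rarb with Egfl8 (0.864) and Mef2c with Creb1 (0.902).

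Markers of other cells differed widely in their summed levels. Beside the astrocyte sums given above, oligodendrocyte markers summed to 81.9 to 475.6 TPM and GABAergic interneuron markers to 16.5 to 605.5 TPM over the 16 libraries, and their part in the results was not tested. Endothelial markers summed to at most 6.20 TPM in any library, with Tek at 0 in all 4 groups. Microglia markers summed to at most 35.6 TPM, with C1qa at 0 in all 4 groups. Immature neuron markers, some of which accompany Sp9 in newborn neurons, summed to 14.1 to 68.6 TPM. Cortical glutamatergic markers reached 139 TPM in 1 old D1 library and at most 23.2 in young D1 libraries.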

How the data were processed

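Ribosome-bound mRNA of 16 libraries was analysed, and 3 ribosome profiling samples of NIH-3T3 cells were not analysed here. Per the submitters' processing notes, reads were processed with STAR (2.5.1b) and RSEM (1.2.20), and the build was mm10. Neither annotation nor strandedness is given in the sources used here. The deposited tables hold RSEM expected counts and TPM, and isoform shares as percent of the gene, per the file headers. RSEM divides fragments among isoforms by a model. Expected counts were rounded, filtered with filterByExpr, scaled by TMM and fitted over all 16 libraries with edgeR's robust quasi-likelihood test (edgeR 4.0.16, R 4.3.3). Adjusted p-values are Benjamini-Hochberg over 13926 genes with a threshold of 0.05, and an SE is the log2 fold change over the square root of F. Isoform usage was tested with limma 3.58.1 diffSplice on voom values of 21625 isoforms. DESeq2 1.42.0 was an alternative. The code was tested on simulated data. Positions are from GENCODE M21 (GRCm38), to which 37607 genes matched.

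The members and lists were chosen with earlier results of these data known. The rule named all 7 members, their isoforms of at least 10% mean share, relatives of at least 5 TPM, up to 3 called genes per list, direction and contrast, and the 3 genes nearest to each member by correlation. Not every gene named by this rule is reported here. The planned removal of per-library GC and length trends moved the median of all genes. A second version was therefore added after its results were seen, with the trend taken from genes above a mean log2 CPM of 4 and centred at 0 in each library. Both are reported.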

Additional observations from a re-analysis of the deposited data

Results flagged for a closer look

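Of 108 groups of 4 values looked at, 12 held 1 library far from the other 3 by Dixon's test, where chance flags about 1 in 20. For TPM these were Foxp1 at 330.2 in young D1 (the next library was at 521), Rarb at 175.4 in young D2 (next 137) and Rarb at 99.04 in old D2 (next 83.1). For isoform shares in old D1 they were Six3-202 at 34.63%, Six3-203 at 65.37% and Foxp1-210 at 50.66%. In young D2 they were Sp9-201 at 99.7%, Foxp1-228 at 12.07%, Meis2-203 at 18.4% and Mef2c-201 at 3.92%. In old D2 they were Meis2-202 at 48.46% and Meis2-205 at 6.6%. The age change of Meis2-203 usage differed between D1 and D2 neurons by 14.84 on the log2 scale (SE 2.98, diffSplice, adjusted p = 2.79e-04).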

How the results depend on the processing

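No paired analysis was possible because the labels give no replicate numbers shared between groups. Under the planned GC and length removal the median log2 difference of all genes stood at 0.61 (age in D1), 0.67 (difference of age changes) and 0.75 (old D1 against old D2), against -0.06, -0.11 and -0.07 in edgeR without it. Its values are to be read against those medians. The centred version, added after those results were seen, had medians of 0.09, 0.05 and 0.05, and the versions gave different calls. In the same 3 contrasts the medians were -0.15, -0.22 and -0.31 on log2(TPM + 1), -0.33, -0.41 and -0.55 on log2(TPM + 0.1), and -0.38, -0.41 and -0.40 with voom weights. The planned one called 1 member with age in D1 (Six3, 1.61), 1 in the difference (Six3), 1 at 42 days (Sp9, losing Foxp1) and 2 at 2 years (Rarb and Sp9). The centred one called 0, 0, 2 (Foxp1 kept) and 2 (Foxp1 and Sp9). With age in D2, 1 member, Rarb, was called with only the compared groups and with voom weights, and voom weights called 4 at 42 days (with Six3 and Meis2).

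Without single libraries the members called ranged from 1 to 2 at 42 days, 1 to 2 at 2 years and 0 to 0 in the 3 age contrasts. The isoform calls ranged from 5 to 12, and 12 came without old D2 replicate 1. Sp9 kept its direction and call between neuron types in all 25 alternatives at each age.

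The following directions turned, all for differences that were not called except Mef2d. Under the planned GC and length removal these were, with age in D1, Meis2 at 0.63, Rarb at 0.44 and Mef2d at 0.43. With age in D2 it was Sp9 at -0.17, and in the difference Bcl11b at 0.14 and Mef2d at 0.43. At 42 days they were Bcl11b at 0.16 and Mef2c at 0.0065, and at 2 years Six3 at 0.73, Bcl11b at 0.31, Meis2 at 0.58 and Mef2d at 0.36. Under the centred removal they were Foxp1 at -0.085 and Meis2 at 0.0050 with age in D1, Bcl11b at 0.0056 at 42 days and Mef2c at -0.045 at 2 years. On log2(TPM + 1) and log2(TPM + 0.1) they were Meis2 at 0.089 and 0.089 and Rarb at 0.037 and 0.037 with age in D1, and Mef2c at -0.069 and -0.070 at 2 years. With voom weights they were Sp9 at -0.11 with age in D1 and -0.30 in the difference, and Mef2c at 0.064 at 42 days.

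Leaving out 1 library turned Sp9 with age in D1 (-0.049 to 1.91), Rarb with age in D1 (-0.27 to 0.041), Sp9 (-0.15 to 0.20) and Six3 (-0.32 to 0.041) with age in D2, Sp9 in the difference (-0.088 to 1.87), Bcl11b (-0.25 to 0.016) and Mef2c (-0.38 to 0.039) at 42 days, and Mef2c at 2 years (-0.022 to 0.32). The cause of these changes was not tested.

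All genes called numbered 1508 with age in D1 (DESeq2 2600, compared groups only 305, voom 547, centred removal 940), 11 with age in D2 (102, 39, 167, and 0 under the planned removal) and 246 in the difference (DESeq2 1019, planned 409, centred 141). They numbered 57 at 42 days (DESeq2 189, compared groups 98, voom 203, planned 34) and 1337 at 2 years (2402, 354, 655, planned 2702). Leaving out 1 library moved these counts to between 909 (without young D1 replicate 4) and 2055 (without old D1 replicate 3) with age in D1, 5 (without young D2 replicate 3) and 18 (without old D1 replicate 4) with age in D2, and 66 (without old D2 replicate 2) and 656 (without old D1 replicate 3) in the difference. At 42 days they ran from 40 (without young D1 replicate 1 or young D2 replicate 1) to 90 (without old D1 replicate 4), and at 2 years from 692 (without old D2 replicate 2) to 1873 (without old D1 replicate 3). The shares of all genes called move with them.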
